A study of Mus musculus with 29 samples.

Results

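The expression of 10 genes that mark the blood vessel wall was examined in kidney, in tertiary lymphoid structures (TLS) of the kidney and in lymph nodes of lupus-prone NZB/W mice. The genes were chosen by name, as markers of 3 vessel cell types. Pecam1, Cdh5, Kdr, Emcn and Egfl7 mark endothelial cells, Rgs5 and Pdgfrb mark pericytes, and Acta2, Tagln and Myh11 mark smooth muscle cells. All 10 were among the 13982 genes listed, and each had reads in kidney, TLS and lymph node.

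Endothelial cells line every vessel and are held together by junction proteins such as those encoded by Pecam1 and Cdh5. Pericytes wrap the endothelium of small vessels, are recruited through the receptor encoded by Pdgfrb, and have the mesangial cells of the glomerulus as close relatives. Smooth muscle cells form the wall of arteries and arterioles, and their contractile genes are also switched on in myofibroblasts, the matrix-forming cells of a scarring kidney. In lymph nodes, lymphocytes leave the blood through high endothelial venules, and TLS that form in the kidney in lupus nephritis can hold such venules too.

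All mice were of the (NZBxNZW)F1 strain, in which nephritis develops spontaneously. From proteinuric mice there were 4 kidney libraries (mice H6, H20, H115 and H117, aged 39, 36, 25 and 32 weeks), 3 TLS libraries (mice H6, H20 and H115) and 3 lymph node libraries (mice H6, H20 and H117). A further 3 libraries were from lymph nodes of mice positive for anti-dsDNA antibody (mice D10, D11 and L25, aged 28, 29 and 18 weeks), and 1 lymph node library, labelled young, came from a mouse aged 4 weeks. TLS were cut by hand from the kidney under a loupe and the kidney libraries were made from tissue of the same kidney, so each library held every cell type of its piece. The antibody-positive lymph nodes were extracted with the miRNeasy kit and the remaining samples with TRIzol. The antibody-positive mice, aged 18 to 29 weeks, were also younger than the proteinuric mice with a lymph node library, aged 32 to 39 weeks. Between these lymph nodes the kit, the age and the disease state cannot be told apart. Different tissues of a mouse share an animal, and the p-values measure the spread between the libraries of a group.

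Values are normalized read counts, to which the authors had added 1 read per gene before dividing by a size factor per library. The libraries held between 343825 and 443379 reads, of which between 167440 and 405739 lay outside ribosomal RNA genes. Ribosomal RNA was high in 3 libraries, with 55.6% of the reads in the H117 kidney, 31.8% in the H6 lymph node and 21.3% in the H115 TLS, and took at most 5.33% in the other 11. A gene without a read had a value between 0.786 and 1.77, and 3 reads, taken as the floor of detection, were worth between 2.36 and 5.32. Of the endothelial genes, only Pecam1 had more than 20 reads in any library, so most endothelial values rest on few reads. These limits cover counting error only, since PCR copies of a molecule are counted as separate reads.

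The labels of the tissues were checked with markers of the cells that each should hold. The summed value of 9 tubule markers was between 7649 and 21674 in kidney, between 2540 and 8623 in TLS, and at most 64.2 in the lymph nodes. That highest sum was in the lymph node of mouse L25, which also held skeletal muscle transcripts. Of its 56 tubule marker reads, 50 were of Pvalb. The other lymph nodes had sums of at most 12.3. The summed value of 8 lymphocyte markers was between 0 and 32.9 in kidney, between 381 and 548 in TLS and between 787 and 1373 in the lymph nodes. Glycam1, a mucin of high endothelial venules, had 0, 6, 0 and 0 reads in kidney of mice H6, H20, H115 and H117, between 114 and 320 reads in TLS and between 1103 and 3214 reads in the lymph nodes. TLS also held transcripts of the urothelium, the lining of the renal pelvis, with a sum over 7 markers between 135 and 748 in TLS and between 0 and 22.0 in kidney. Fat was carried with the lymph nodes: 6 adipocyte markers summed to 152, 485 and 43.7 in those of proteinuric mice H6, H20 and H117, to 129, 433 and 718 in those of antibody-positive mice D10, D11 and L25, and to 328 in the young one. Adipocyte transcripts were also found in TLS of mouse H20, at 185, whereas TLS of mice H6 and H115 had 1 read and none, and all 6 markers had 0 reads in the 4 kidneys. The part of these admixed cells in the values of the vascular genes was not tested.

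**Figure D1:**
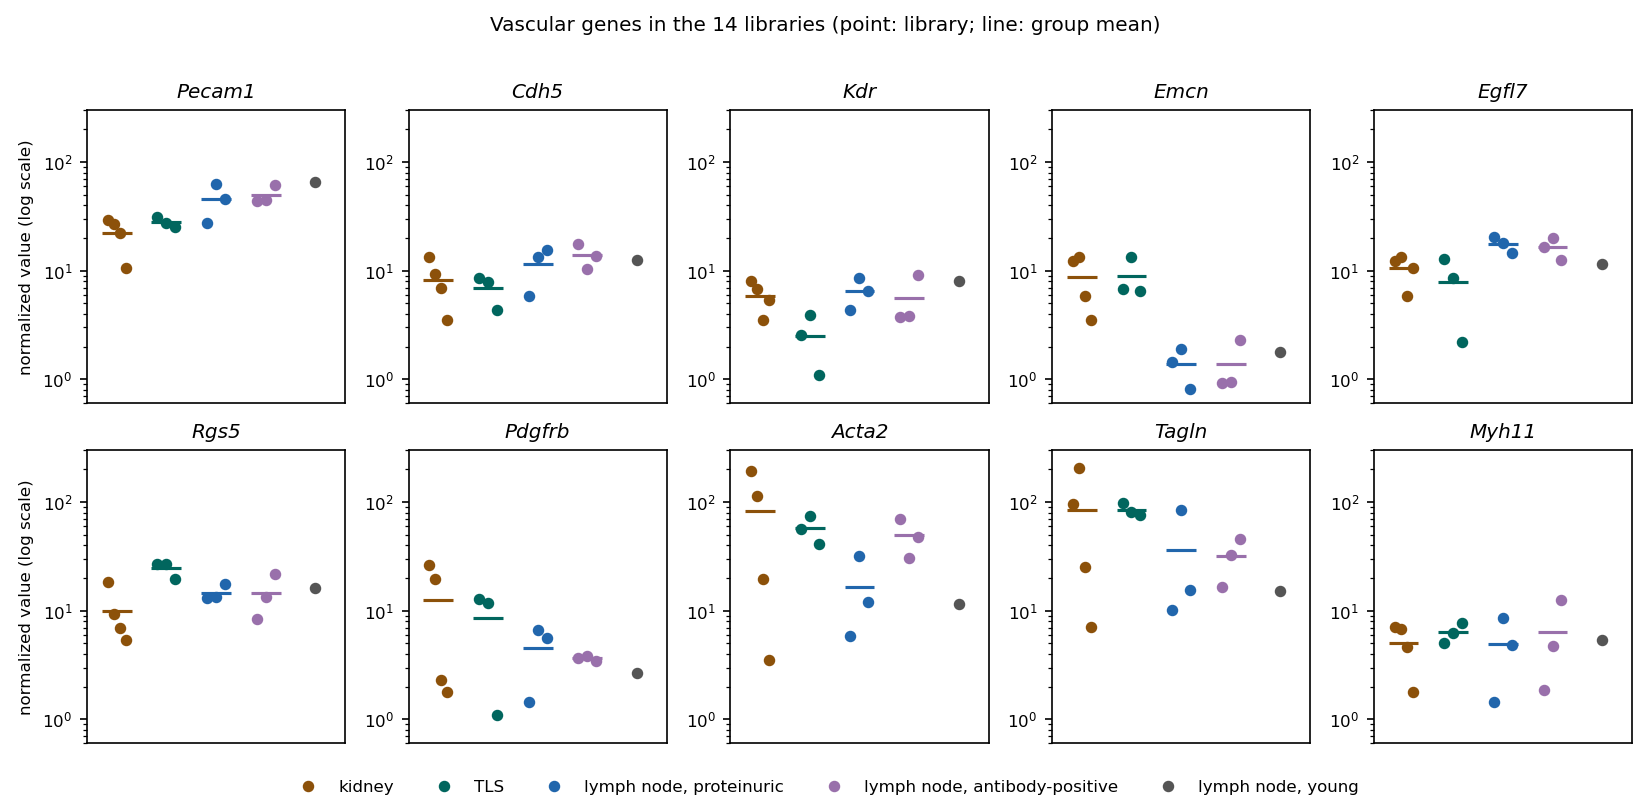
Normalized values of the 10 vascular genes on a log scale, with 1 point per library and a line at the mean of each group with more than 1 library. Emcn is lower in every lymph node library than in the kidney and TLS libraries, although the lowest kidney, that of mouse H117, had 1 read like 3 of the lymph nodes, Rgs5 is higher in the 3 TLS libraries than in the 4 kidney libraries, and Acta2 and Tagln spread widest in kidney.

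Kidney, TLS and lymph node of proteinuric mice entered a single limma fit over 7382 genes, and a gene was called at a Benjamini-Hochberg adjusted p under 0.05. All 10 vascular genes passed the filter of a mean value of at least 5. Emcn did so through its values in kidney and TLS, so that its calls against lymph node concern a gene tested because of the tissues where it was high. Kdr, with a mean of 2.52 in TLS, passed through kidney and lymph node. Between kidney and TLS 1 of the 10 was called, Rgs5, against 14.7% of all genes tested, and the libraries of the groups did not overlap for 1 of the 10, again Rgs5, against 25.4%. Between lymph node and TLS 1 was called, Emcn, against 10.6%. In that comparison 5 of the 10 did not overlap, against 26.8%: Emcn, Rgs5 and Acta2 were higher in TLS, and Kdr and Egfl7 were higher in lymph node. Without the read that the authors added to each value, Kdr overlapped and 4 of the 10 did not, against 26.3%. Between kidney and lymph node 1 was called, Emcn, against 43.8%, and 2 did not overlap, Emcn and Egfl7, against 48.8%. All genes called numbered 1084 between kidney and TLS, 780 between lymph node and TLS and 3230 between kidney and lymph node. The median log2 fold change of the 10 vascular genes was -0.24 for kidney minus TLS, where the median of all genes tested was 0.01, -0.51 for lymph node minus TLS (0.04), and -0.0018 for kidney minus lymph node (-0.05). In these libraries fewer cells of a type and less RNA per cell cannot be told apart.

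**Figure D2:**
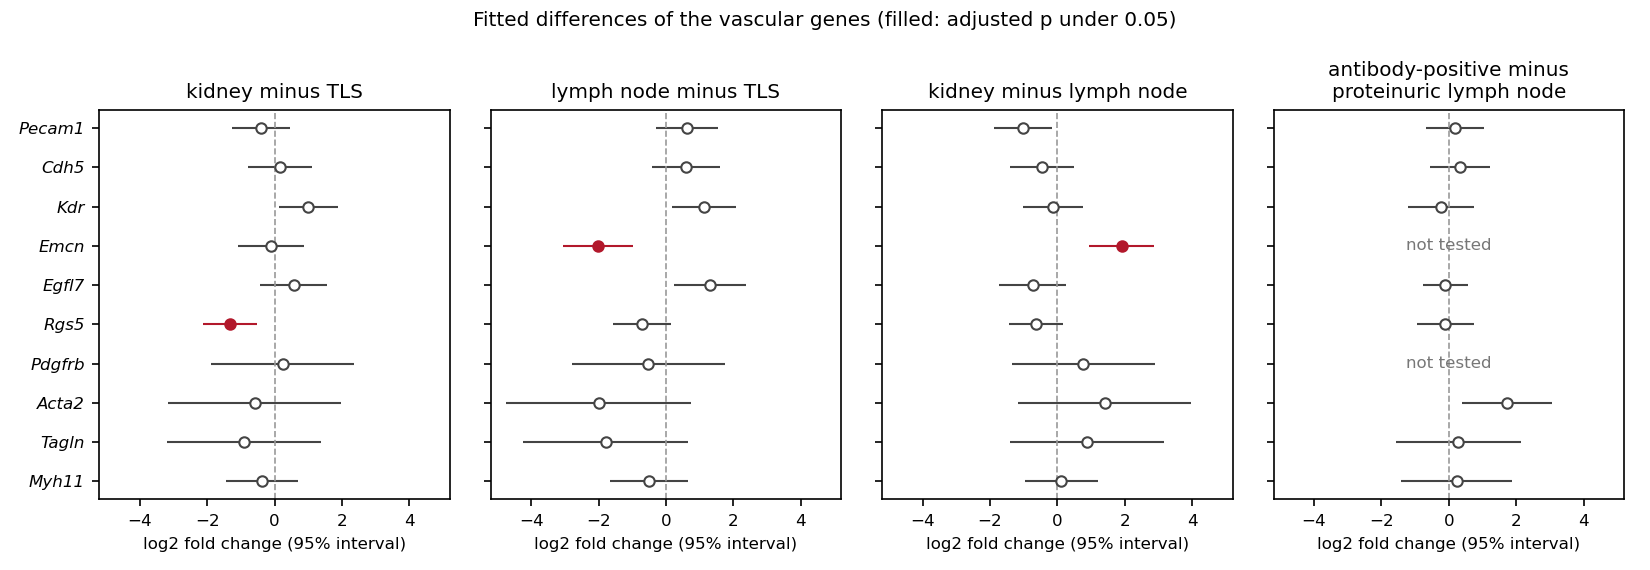
Log2 fold changes of the 10 vascular genes in the 4 comparisons, with 95% intervals from limma, where filled points mark an adjusted p under 0.05. Rgs5 is filled for kidney minus TLS, Emcn is filled in both comparisons with lymph node, and the intervals of Pdgfrb, Acta2 and Tagln are the widest in the 3 tissue comparisons.

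Emcn (ENSMUSG00000054690; GRCm38 chr3:137341067-137432185, + strand) encodes endomucin, a sialomucin on the surface of capillary and venous endothelium. Its values in kidney of mice H6, H20, H115 and H117 were 12.4, 13.5, 5.79 and 3.55. In TLS of mice H6, H20 and H115 they were 6.78, 13.4 and 6.54. Kidney of mouse H117 had 1 read, below the floor, and the TLS libraries had between 5 and 16 reads. In lymph node of proteinuric mice the values were 1.45, 1.89 and 0.809, which stand for 0, 1 and 0 reads. The antibody-positive lymph nodes and the young lymph node likewise had 0 or 1 read each, so each of the 7 lymph node libraries was below the floor of 3 reads. The TLS values lay inside the range of the kidney values.

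Emcn averaged 8.80 ± 4.88 over the kidneys (SD, n = 4), 8.90 ± 3.87 over TLS (SD, n = 3) and 1.38 ± 0.55 in lymph node of proteinuric mice (SD, n = 3). Set against the value of 3 reads in the shallowest of these lymph node libraries, Emcn was at least 1.84-fold higher in TLS and at least 1.76-fold higher in kidney. The fitted log2 fold change was -2.01 for lymph node minus TLS (standard error 0.48, adjusted p = 0.0166) and 1.91 for kidney minus lymph node (standard error 0.45, adjusted p = 0.0039). The second call held in each of the 20 alternative settings. The first was lost without TLS of mouse H20 (adjusted p = 0.0888), without lymph node of mouse H117 (adjusted p = 0.0691) and when the fit held only both tissues compared (adjusted p = 0.0704). Kidney and TLS did not differ beyond their spread, with an interval from -1.07 to 0.87 for kidney minus TLS. The promoter of Emcn, shown because this gene was called between the lymph nodes and both other tissues, is given 5′ to 3′ from 250 bases before to 50 bases after the RefSeq start (GRCm38.p6 chr3:137340828-137341127, + strand). It held none of the motifs searched and so has no capitals.
Emcn: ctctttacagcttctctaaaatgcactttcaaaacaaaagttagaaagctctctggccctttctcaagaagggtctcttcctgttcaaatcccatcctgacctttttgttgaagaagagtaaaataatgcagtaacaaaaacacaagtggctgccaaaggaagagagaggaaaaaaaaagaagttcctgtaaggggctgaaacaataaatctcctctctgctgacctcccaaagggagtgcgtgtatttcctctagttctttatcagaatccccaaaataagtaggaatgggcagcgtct

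Both strands were searched for the CArG box, which the serum response factor binds, exactly or with at most 1 mismatch. Among the 32851 promoters of the RefSeq table, 1.63% held an exact CArG box and 9.98% one with at most 1 mismatch. The letters TATAAA were in 13.6% of these promoters. The variant TATATA, which can overlap a CArG box, was in 5.67%. The letters GGAAGT, found in sites of ETS factors, were in 23.8%. A match is a description of the letters only. Of the vascular genes with a promoter in the table, Kdr, Egfl7 and Acta2 held a CArG box with 1 mismatch and none held an exact one, and of the promoters of further smooth muscle genes 11.8% held one with at most 1 mismatch, near the share of all promoters.

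Pecam1 (ENSMUSG00000020717; chr11:106654217-106750628, - strand) encodes the adhesion molecule CD31 of endothelial junctions, which platelets and many leukocytes also carry. It had the most reads of the endothelial genes in each group. Its values were 29.2, 27.0, 22.0 and 10.6 in kidney of mice H6, H20, H115 and H117, and 31.4, 27.5 and 25.1 in TLS of mice H6, H20 and H115. The lymph nodes of mice H6, H20 and H117 had 27.5, 63.5 and 46.1. The TLS libraries lay close together and the lymph node of mouse H6 lay among them, while the lymph nodes of mice H20 and H117 were higher than any kidney or TLS library.

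Pecam1 averaged 22.2 ± 8.27 over the kidneys (SD, n = 4), 28.0 ± 3.18 over TLS (SD, n = 3) and 45.7 ± 18.0 in lymph node of proteinuric mice (SD, n = 3). The log2 fold change for kidney minus lymph node was -1.02 (standard error 0.39, limma adjusted p = 0.0519), just outside the threshold. It was called in 9 of 21 alternatives, among them the fits without kidney of mouse H6 (adjusted p = 0.0419), without kidney of mouse H20 (adjusted p = 0.0495), without lymph node of mouse H6 (adjusted p = 0.0249) and with all 7 lymph nodes as 1 group (adjusted p = 0.0025). In lymph nodes of antibody-positive mice D10, D11 and L25 the values were 43.6, 44.7 and 62.0. The young lymph node had 65.3, the highest of all 14 libraries, from 72 reads, or 195 CPM (95% Wilson interval 155 to 246). A sum over 4 listed markers of platelets and monocytes, which are other sources of this transcript, was between 1.16 and 13.5 in kidney, between 25.1 and 58.5 in TLS and between 38.0 and 77.7 in the lymph nodes. In TLS and lymph node of proteinuric mice most of the sum came from Ly6c2, with means of 38.0 and 48.5 against 1.82 in kidney. The sum was higher in the lymph nodes than in kidney, as were most values of Pecam1. The part of these cells in the Pecam1 values was not tested.

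Kdr (ENSMUSG00000062960; chr5:75932827-75978458, - strand) encodes the main signalling receptor for VEGF on endothelium. Its values were 7.96, 6.75, 3.48 and 5.32 in kidney of mice H6, H20, H115 and H117. In TLS of mice H6, H20 and H115 they were 2.54, 3.93 and 1.09, from 2, 4 and 0 reads. Lymph nodes of mice H6, H20 and H117 had 4.35, 8.53 and 6.47. TLS was lowest on average, at 2.52 ± 1.42 (SD, n = 3), against 5.88 ± 1.93 in kidney (SD, n = 4) and 6.45 ± 2.09 in lymph node (SD, n = 3). The kidneys of the same 3 mice had 8, 7 and 2 reads, so no fold within a mouse is given, since most of these counts lie at or near the floor. Neither difference passed the test over all genes, with a log2 fold change of 1.00 for kidney minus TLS (limma adjusted p = 0.123) and of 1.13 for lymph node minus TLS (adjusted p = 0.135). With all 7 lymph nodes as 1 group the second was called (adjusted p = 0.0431). The TLS mean was below the filter of 5, so this call too concerns a gene tested because of the tissues where it was higher.

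Egfl7 (ENSMUSG00000026921; chr2:26580014-26593120, + strand) encodes a matrix protein that endothelial cells secrete, and it hosts a microRNA in an intron. Its values were 12.4, 13.5, 5.79 and 10.6 in kidney of mice H6, H20, H115 and H117, and 12.7, 8.65 and 2.18 in TLS of mice H6, H20 and H115. Values were 20.3, 18.0 and 14.6 in lymph node of mice H6, H20 and H117, above every kidney and TLS library. The difference did not pass the test over all genes. The log2 fold change was 1.30 for lymph node minus TLS (standard error 0.49, limma adjusted p = 0.122) and -0.73 for kidney minus lymph node (standard error 0.46, adjusted p = 0.217). Lymph node minus TLS was called without TLS of mouse H6 (adjusted p = 0.0384) and with all 7 lymph nodes as 1 group (adjusted p = 0.0383). Egfl7 shares 264 exonic bases with Gm20532 on the same strand, and no read was assigned to that gene in any library.

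Cdh5 (ENSMUSG00000031871; chr8:104101625-104144511, + strand) encodes VE-cadherin, the cadherin of endothelial junctions. Its values lay between 3.55 and 13.3 in kidney, between 4.36 and 8.48 in TLS, and between 5.80 and 15.4 in lymph node of proteinuric mice, so the 3 tissues overlapped. None of its fitted differences passed the test, with adjusted p-values of 0.862 for kidney versus TLS, 0.486 for lymph node versus TLS and 0.431 for kidney versus lymph node. The interval for kidney minus TLS ran from -0.79 to 1.10 on the log2 scale, so differences of any size within it remain compatible with these libraries.

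The means of the 5 endothelial genes were not ordered alike across tissues. Those of Pecam1, Cdh5, Kdr and Egfl7 were highest in lymph node, most within the spread between libraries, and that of Emcn was lowest there. The sum of the 5 was between 24.9 and 70.7 in kidney, between 33.8 and 57.7 in TLS and between 52.2 and 100.4 in lymph node of proteinuric mice, and the ranges overlapped. Of 25 further endothelial genes, 23 were listed and 12 had a mean value high enough to be tested. None of the 12 was called between kidney and TLS or between lymph node and TLS, against 14.7% and 10.6% of all genes tested. Between kidney and lymph node 2 of the 12 were called, against 43.8%, and both were higher in lymph node. Icam2, an adhesion ligand for leukocytes, had a mean of 4.84 ± 1.36 in kidney (SD, n = 4) and 15.5 ± 7.01 in lymph node (SD, n = 3), and the log2 fold change was -1.44 (limma adjusted p = 0.0038). That kidney mean was near the floor and below the filter of 5, which Icam2 passed through other tissues. Cldn5, a tight junction protein, had 6.97 ± 0.16 and 13.1 ± 3.50, with a log2 fold change of -0.79 (adjusted p = 0.0376). The adipocyte and lymphocyte sums were likewise higher in each lymph node than in each kidney. The lymphocyte sum was between 0 and 32.9 in kidney and between 798 and 1017 in lymph node of proteinuric mice. The part of lymphocytes and of fat in the Icam2 and Cldn5 values was not tested. Among lymph nodes of proteinuric mice, that of mouse H20 had the most adipocyte transcripts and the highest values of Pecam1 and Kdr, but not of Cdh5 or Egfl7. Of the pericyte and smooth muscle genes, Tagln, Acta2, Myh11 and Pdgfrb were also highest there, but Rgs5 was not. Tagln had 84.3 in mouse H20, against 10.1 and 15.4 in mice H6 and H117. The part of fat in these values was not tested.

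Rgs5 (ENSMUSG00000026678; chr1:169655501-169695813, + strand) encodes a regulator of G protein signalling that marks pericytes and some arterial smooth muscle. Its values in kidney of mice H6, H20, H115 and H117 were 18.6, 9.28, 6.95 and 5.32. In TLS of mice H6, H20 and H115 they were 27.1, 26.7 and 19.6. Every TLS library was above every kidney library, although TLS of mouse H115 and kidney of mouse H6 lay close, at 17 and 20 reads. Within a mouse, the value was 1.46-fold, 2.88-fold and 2.82-fold higher in TLS than in kidney of mice H6, H20 and H115.

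The mean of Rgs5 in the TLS libraries was 24.5 ± 4.22 (SD, n = 3), against 10.0 ± 5.92 in those of kidney (SD, n = 4). The log2 fold change for kidney minus TLS was -1.33 (standard error 0.37, 95% interval -2.14 to -0.53, limma adjusted p = 0.0298). This call was lost in 8 of 19 alternatives, in which the log2 fold change stayed negative. The adjusted p was 0.0882 without kidney of mouse H115, 0.0726 without kidney of mouse H117, 0.113 without TLS of mouse H6 and 0.0968 without TLS of mouse H20. It was 0.0623 with edgeR on DESeq2 size factors, 0.0667 with DESeq2 and 0.0617 when only kidney and TLS entered the fit. With the mouse as a replicate block it was 0.0473. Without the 3 libraries rich in ribosomal RNA, a choice made after seeing the data, it was 0.075.

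In lymph node of proteinuric mice H6, H20 and H117 Rgs5 had values of 13.04, 13.3 and 17.8, each below the TLS libraries, with a log2 fold change of -0.70 for lymph node minus TLS (adjusted p = 0.331). The antibody-positive lymph nodes had 8.34, 13.3 and 21.8 and the young lymph node 16.1, and the highest of these was above TLS of mouse H115. Rgs5 was called lower in kidney than in lymph node in 1 of 20 alternatives, the fit without kidney of mouse H6 (adjusted p = 0.0328), against an adjusted p of 0.187 with all libraries. Markers of other cells were also higher in each TLS library than in each kidney library. The 6 fibroblast markers summed to between 194 and 219 in TLS and to between 10.6 and 171 in kidney, and of these Dcn was called (139 ± 38.8 in TLS, SD, n = 3, against 30.9 ± 20.8 in kidney, SD, n = 4, limma adjusted p = 0.00554). The urothelial transcripts had sums of 417, 135 and 748 in TLS of mice H6, H20 and H115. The part of fibroblasts and of urothelium in the difference of Rgs5 was not tested. The promoter of Rgs5 is shown because this was the vascular gene called between TLS and kidney (GRCm38.p6 chr1:169655251-169655550, + strand, same window, TATATA in capitals). The match begins 30 bases before the RefSeq start.
Rgs5: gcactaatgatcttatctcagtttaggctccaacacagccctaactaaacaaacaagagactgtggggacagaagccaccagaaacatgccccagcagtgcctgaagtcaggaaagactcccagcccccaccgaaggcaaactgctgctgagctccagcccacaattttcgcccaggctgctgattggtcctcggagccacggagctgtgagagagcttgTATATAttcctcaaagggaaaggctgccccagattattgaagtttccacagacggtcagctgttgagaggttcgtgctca

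Pdgfrb (ENSMUSG00000024620; chr18:61045150-61085061, + strand) encodes the receptor for PDGF-B on pericytes, mesangial cells and fibroblasts. Its values in kidney of mice H6, H20, H115 and H117 were 26.5, 19.4, 2.32 and 1.77, from 29, 22, 1 and 0 reads. In TLS of mice H6, H20 and H115 they were 12.7, 11.8 and 1.09. The gene was thus above the floor in both tissues of mice H6 and H20 and at or below it in both tissues of mouse H115. In lymph node of mice H6, H20 and H117 the values were 1.45, 6.63 and 5.67, and the antibody-positive and young lymph nodes had between 2 and 3 reads each. No comparison passed the test, and the log2 fold change for kidney minus TLS was 0.24 with an interval from -1.88 to 2.37.

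Of 14 further pericyte and mesangial genes, all listed, 2 had values high enough to be tested. Ren1, which encodes renin of the juxtaglomerular cells, was called between kidney and TLS, against 14.7% of all genes tested. It had 44.2, 31.2, 10.4 and 19.5 in kidney of mice H6, H20, H115 and H117 and 5.09, 9.43 and 1.09 in TLS of mice H6, H20 and H115, a log2 difference of 2.24 (standard error 0.55, limma adjusted p = 0.0166). Every kidney library was above every TLS library. No lymph node library had a read of Ren1, which passed the filter through kidney, and against the value of 3 reads in the shallowest of the proteinuric lymph node libraries it was at least 5.79-fold higher in kidney (adjusted p = 0.000223).

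Acta2 (ENSMUSG00000035783; chr19:34241090-34255590, - strand) encodes alpha smooth muscle actin, the main thin filament of smooth muscle and a standard marker of myofibroblasts. In kidney of mice H6, H20, H115 and H117 its values were 194, 113, 19.7 and 3.55, from 218, 133, 16 and 1 reads. In TLS of mice H6, H20 and H115 they were 56.8, 74.7 and 41.4. The kidney values spanned 54.5-fold from the lowest to the highest library, and the TLS values 1.80-fold. The kidney span rests on mouse H117, whose 1 read was below the floor and which has no TLS library, and over the 3 mice with both tissues it was 9.83-fold. The TLS libraries therefore lay inside the range of kidney, below the kidneys of mice H6 and H20 and above those of mice H115 and H117. Within a mouse, Acta2 was 3.41-fold higher in kidney than in TLS of mouse H6 and 1.51-fold higher in mouse H20, and 2.10-fold higher in TLS of mouse H115.

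In lymph node of mice H6, H20 and H117 Acta2 had values of 5.80, 32.2 and 12.1, each below the TLS libraries. None of the differences passed the test. The log2 fold change was -0.59 for kidney minus TLS (standard error 1.15, limma adjusted p = 0.798) and -1.99 for lymph node minus TLS (standard error 1.23, adjusted p = 0.384). The mean was nevertheless higher in kidney, at 82.5 ± 88.4 (SD, n = 4) against 57.6 ± 16.6 for TLS (SD, n = 3), since 2 kidneys were far above the others. The sign of the kidney and TLS difference turned with the test and the libraries, to 0.33 with edgeR and TMM, to 0.49 with DESeq2 and to 0.44 without kidney of mouse H117. Kidney minus lymph node was 1.40 (adjusted p = 0.354) and was called without kidney of mouse H117 (log2 fold change 2.43, adjusted p = 0.0313). The promoter of Acta2 is shown because this gene had the widest range among the kidneys (GRCm38.p6 chr19:34255324-34255623, - strand, same window). Capitals mark a pair of CArG boxes, each with 1 mismatch, 84 and 34 bases before the RefSeq start, and TATATA 8 bases after it.
Acta2: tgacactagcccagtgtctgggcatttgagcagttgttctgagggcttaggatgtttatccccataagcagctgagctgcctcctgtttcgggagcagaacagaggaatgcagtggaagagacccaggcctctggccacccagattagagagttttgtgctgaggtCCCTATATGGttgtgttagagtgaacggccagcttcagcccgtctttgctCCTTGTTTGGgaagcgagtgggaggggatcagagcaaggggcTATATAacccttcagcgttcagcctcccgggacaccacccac

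Tagln (ENSMUSG00000032085; chr9:45929619-45936058, - strand) encodes transgelin, an actin-bundling protein of smooth muscle. In kidney of mice H6, H20, H115 and H117 its values were 96.4, 207, 25.5 and 7.10, and in TLS of mice H6, H20 and H115 they were 98.4, 81.7 and 76.3. Values of 10.1, 84.3 and 15.4 were found in lymph node of mice H6, H20 and H117. As for Acta2, kidney spanned more than TLS, 29.1-fold over 4 kidneys (8.10-fold without that of mouse H117, which had 3 reads) against 1.29-fold. The value was 2.53-fold higher in kidney than in TLS of mouse H20, 1.02-fold higher in TLS than in kidney of mouse H6, and 2.99-fold higher in TLS than in kidney of mouse H115. No comparison passed the test, with adjusted p-values of 0.621 for kidney versus TLS, 0.383 for lymph node versus TLS and 0.529 for kidney versus lymph node. Tagln shares 877 of its 1595 exonic bases (55.0%) with Gm48529 on the opposite strand, a gene that the table does not list. The strand setting of the counting was not given in the sources used here, so reads of both genes cannot be told apart.

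Myh11 (ENSMUSG00000018830; chr16:14194535-14291372, - strand) encodes the myosin heavy chain of smooth muscle and is the most restricted marker of the 3. Its values were between 1.77 and 7.07 in kidney, between 5.09 and 7.63 in TLS and between 1.45 and 8.53 in lymph node of proteinuric mice. The highest library, lymph node of antibody-positive mouse L25, had 12.6 from 10 reads. No fitted difference of Myh11 passed the test at these low counts, and the interval for kidney minus TLS was -1.45 to 0.70 on the log2 scale. The sum of Acta2, Tagln and Myh11 was 294, 324, 46.4 and 7.10 in kidney of mice H6, H20, H115 and H117, and between 122 and 160 in the TLS libraries.

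Of 18 further smooth muscle genes, 15 were listed and 8 were tested. None was called between kidney and TLS, against 14.7% of all genes tested. Between lymph node and TLS 1 of the 8 was called, against 10.6%, and between kidney and lymph node 3 were, against 43.8%. Smtn, which encodes smoothelin of contractile smooth muscle, was called lower in lymph node than in TLS (log2 fold change -2.37, limma adjusted p = 0.000336) and than in kidney (kidney minus lymph node 3.03). Its mean was 23.2 ± 5.11 in kidney (SD, n = 4), 14.2 ± 2.29 over the TLS libraries (SD, n = 3) and 1.97 ± 0.76 in lymph node (SD, n = 3). That lymph node mean was below the value of 3 reads in each of these libraries. Smtn therefore passed the filter through kidney and TLS, and both folds rest on a level below the floor. Mylk, the myosin light chain kinase, was also higher in kidney than in lymph node (log2 fold change 1.49, adjusted p = 0.00918). Its lymph node mean of 3.68 ± 1.93 (SD, n = 3) was near the floor. Des, the intermediate filament desmin, was called in the other direction (-1.70, adjusted p = 0.0316), with overlapping libraries. Unlike Acta2, Smtn varied little among the 4 kidneys, from 17.8 to 30.1.

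The kidney libraries differed among themselves for all of the vascular genes. For 10 of the 10, both libraries of the 2 older mice (mice H6 and H20) had higher values than both libraries of the 2 younger mice (mice H115 and H117). Of all genes tested, 32.5% showed this order. Within the younger pair the order ran against age, since the kidney of mouse H115, aged 25 weeks, was above that of mouse H117, aged 32 weeks, for 8 of the 10 genes, with Kdr and Egfl7 as the exceptions. In TLS the library of the youngest mouse, mouse H115, was the lowest for 9 of the 10, against 34.6% of all genes tested, with Myh11 as the exception. That library was also the TLS library richest in ribosomal RNA, at 21.3% against 1.91% and 1.77% in TLS of mice H6 and H20, and the part of RNA quality in this order was not tested. This order was noticed in the values, rests on 1 library per mouse and was given no test. Age cannot be told apart from other differences between these animals.

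**Figure D3:**
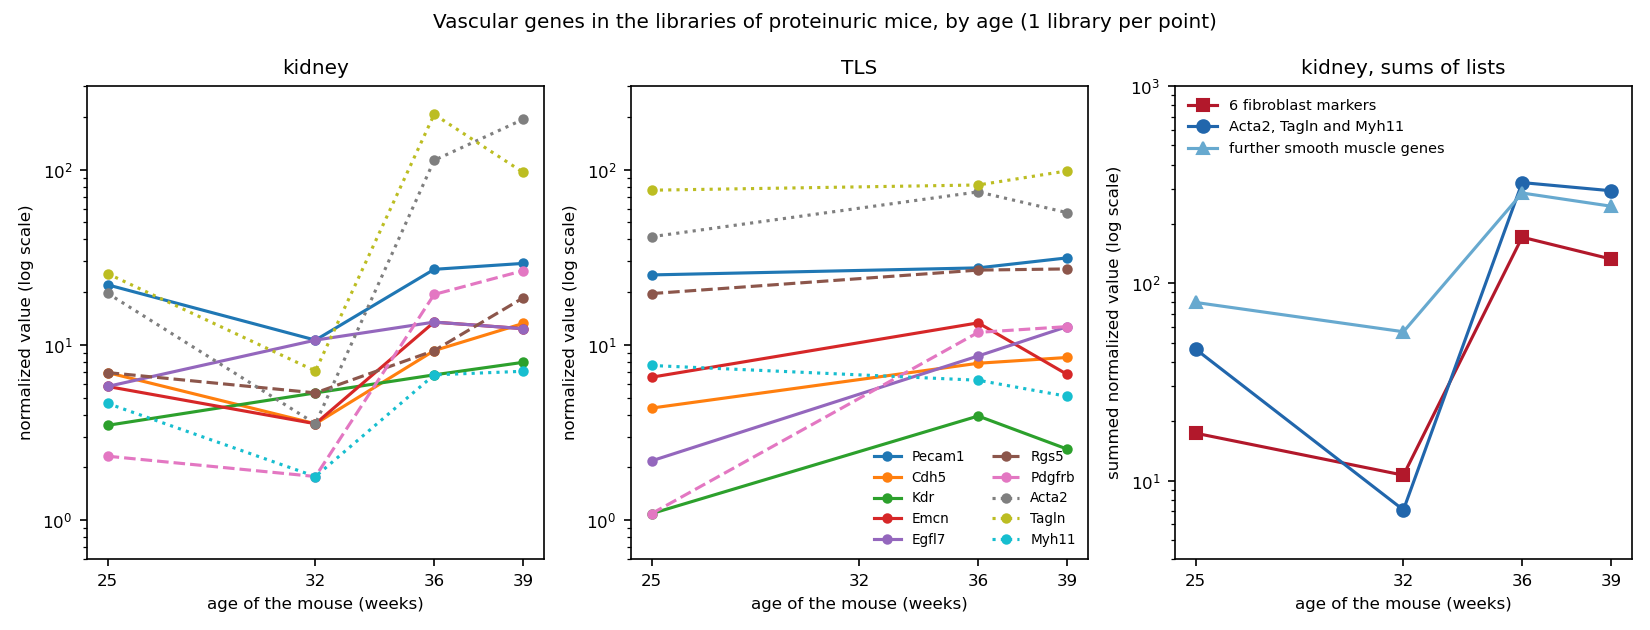
Values of the 10 vascular genes in kidney (left) and TLS (middle) against the age of the mouse, and sums of 3 lists in kidney (right), all on log scales with 1 library per point. In kidney the points of mice H6 and H20, aged 39 and 36 weeks, lie above those of mice H115 and H117, aged 25 and 32 weeks, and the 3 sums move together, whereas Acta2 and Tagln stay nearly level in TLS.

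Several other lists moved with this order in kidney. The further smooth muscle genes summed to 246 and 287 in kidney of mice H6 and H20 and to 79.97 and 56.8 in kidney of mice H115 and H117. The further endothelial genes summed to 266 and 226, and to 146 and 81.6. The 6 fibroblast markers summed to 133 and 171, and to 17.4 and 10.6. Col1a1, Col1a2, Col3a1, Lum and Fbln1 each had 0 reads in both kidneys of the younger mice, where Dcn alone was detected, while Col3a1 had 66 and 67 reads in kidney of mice H6 and H20. The tubule markers went the other way, at 7649 and 9602 in kidney of mice H6 and H20 and at 21674 and 20277 in kidney of mice H115 and H117. The kidney of mouse H117 was also the library with 55.6% ribosomal RNA, but that of mouse H115 had 5.13%. The part of tissue makeup and of RNA quality in this order was not tested.

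Levels can be set side by side between genes only per length, as normalized reads per kb of exon. Tagln and Acta2 were the highest of the 10 in kidney, at 51.9 and 40.0 on average, and in TLS, at 53.0 and 27.9. Pecam1 was next in both, at 5.09 and 6.55. In lymph node of proteinuric mice the order of the means was Tagln at 22.3, Pecam1 at 10.8, Egfl7 at 8.82 and Acta2 at 7.69, whose ranges over libraries overlapped. The first place of Tagln rests on the lymph node of mouse H20, at 52.3. In that of mouse H6 Tagln, at 5.45, was below Pecam1, at 6.31, and Egfl7, at 10.0. In the young lymph node Pecam1 was the highest of the 10, at 15.6, followed by Tagln at 8.98. The lowest levels were those of Myh11 in kidney, at 0.59, of Kdr in TLS, at 0.27, and of Emcn in lymph node of proteinuric mice, at 0.12. The ranges of Tagln, Acta2 and Pecam1 did not overlap in TLS, whereas in kidney the standard deviation of Acta2 and of Tagln was larger than the mean and Acta2 was below Pecam1 in kidney of mouse H117.

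**Figure D4:**
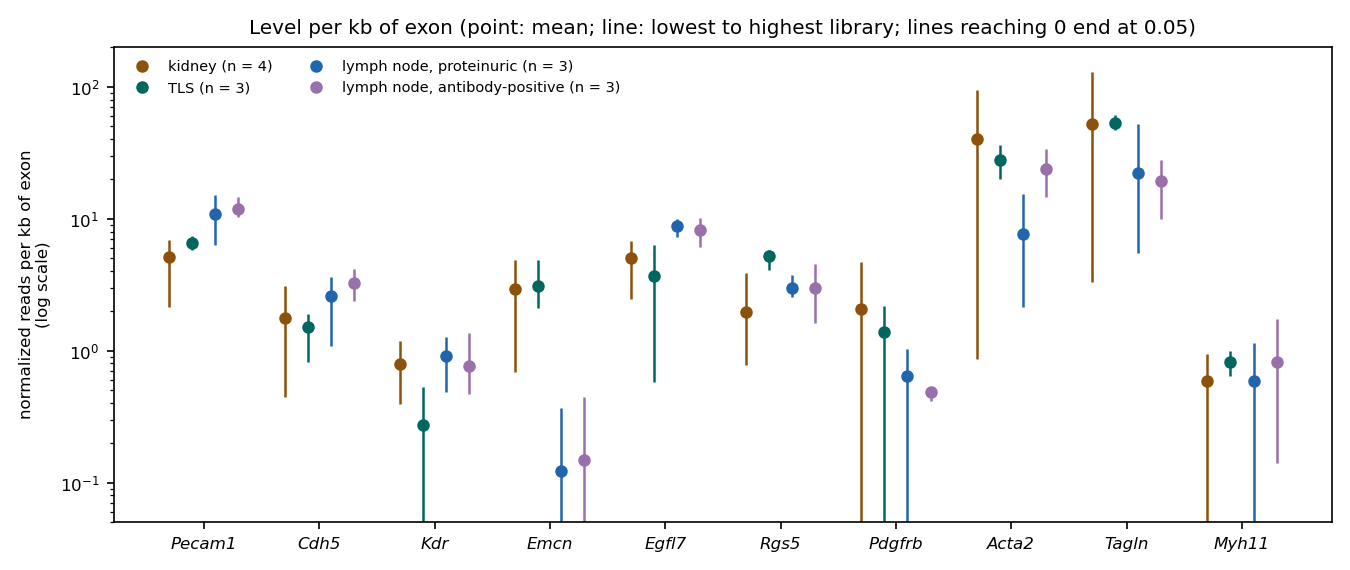
Normalized reads per kb of exon of the 10 vascular genes on a log scale, as the mean (point) and the range over libraries (line) in the 4 groups with replicates. Acta2 and Tagln are the highest in kidney and TLS, Emcn is the lowest in lymph node, and lines that reach the bottom of the plot include a library without a read.

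Antibody-positive and proteinuric lymph nodes, which differed in kit and age as well as in disease state, were compared in a separate fit over 6810 genes. Of the 10 vascular genes 8 could be tested, since Emcn and Pdgfrb were below the filter. None was called, against 0.0% of all genes tested. With limma 0 genes were called and 215 had an unadjusted p under 0.05. With edgeR 0 genes were called as well, and with DESeq2 14 genes. No vascular gene had groups that did not overlap, against 8.58% of all genes. The difference of Acta2 was the largest. Its values were 69.5, 30.4 and 48.2 in antibody-positive mice D10, D11 and L25 and 5.80, 32.2 and 12.1 in proteinuric mice H6, H20 and H117, a log2 difference of 1.73 (standard error 0.58, interval 0.41 to 3.06, adjusted p = 0.998). The lymph nodes of mice D10 and L25 were above all others, and that of mouse D11 lay just below that of mouse H20. The median log2 fold change of the 8 genes was 0.21, and that of all genes tested 0.08.

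Lymph node of antibody-positive mouse L25 also held skeletal muscle transcripts, with a sum over 5 markers of 365, against at most 4.63 in every other lymph node library. It had the highest value of Tagln, Myh11, Rgs5, Kdr and Pecam1 among the 3 antibody-positive lymph nodes. Its Acta2 and Cdh5 were between those of mice D10 and D11, and its Egfl7 and Pdgfrb were the lowest of the 3. Emcn had 1 read in mouse L25 and none in mice D10 and D11. Acta1, the skeletal muscle actin, had 93 reads there and at most 1 read elsewhere. The part of this tissue in the vascular values was not tested. The young lymph node had 12 reads of Acta2, or 32.5 CPM (95% Wilson interval 18.6 to 56.9), and 16 of Tagln, or 43.4 CPM (26.7 to 70.5). Both values, 11.6 for Acta2 and 15.2 for Tagln, were below those of the 3 antibody-positive lymph nodes and inside the range of the proteinuric lymph nodes. With a single library this difference has no replicate check.

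The ligands and receptors that act on vessel cells were followed in a list of 23 genes of the VEGF, angiopoietin, PDGF and Notch families, of which 20 were listed and 6 were tested. None was called between kidney and TLS, against 14.7% of all genes tested. Between kidney and lymph node 3 of the 6 were called, near the 43.8% of all genes tested. Vegfa, the main growth factor of endothelium, was called higher in kidney than in lymph node, at 38.5 ± 7.99 (SD, n = 4) against 12.9 ± 7.10 (SD, n = 3), and the log2 fold change was 1.61 (limma adjusted p = 0.00274). Vegfb (1.19, adjusted p = 0.0179) and the co-receptor Nrp1 (0.99, adjusted p = 0.034) were called in the same direction. Pdgfa was called higher in TLS than in lymph node (lymph node minus TLS -2.06, adjusted p = 0.0328). It was 1 of the 6 called there, against 10.6% of all genes tested. Its lymph node mean was 1.65 ± 0.22 (SD, n = 3), below the value of 3 reads in each of these libraries. It therefore passed the filter through the other tissues, and the fold rests on a level below the floor. In TLS of mice H6, H20 and H115 its values were 5.94, 7.07 and 22.9. The highest of these was the TLS library with the most urothelial transcripts, and the part of urothelium in it was not tested.

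A list of 8 symbols covered the serum response factor, its myocardin-related cofactors and its cofactors of the Elk family. Of these, 6 were listed and 3 were tested. Mrtfa and Mrtfb are newer names of Mkl1 and Mkl2, so the 8 symbols stand for 6 genes. Between kidney and lymph node 2 of the 3 were called, against 43.8% of all genes tested. Elk3 and Mkl1 were called lower in kidney than in lymph node, with log2 fold changes of -1.31 (limma adjusted p = 0.0383) and -1.28 (adjusted p = 0.0449), and the libraries overlapped for both. The kidney mean of Mkl1 was 2.83 ± 0.84 (SD, n = 4), near the floor. None of these factors was called in the other comparisons. Between the lymph node states none of the further vascular genes or regulators was called.

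The genes most like each vascular gene were ranked by Pearson's r of log2 values over the 14 libraries, among 4358 genes. These correlations describe libraries of 5 groups that share mice and differ in tissue and depth, so tissue differences enter them and no p is given. The closest genes to Emcn were Ppap2a, Spp1 and Ctgf, each with r = 0.96. Those to Pecam1 were Ankrd13a (r = 0.96), Jak1 and Wdr43 (r = 0.95 each), those to Cdh5 were Lta4h (0.92), Kansl2 (0.91) and Dcaf12 (0.90), and those to Egfl7 were Necap2 (0.92), Tsnax and Hmgn2 (0.86 each). Kdr was closest to Igfbp3 (0.81), Cd302 (0.74) and Vps4a (0.72). Among the mural genes, Pdgfrb was closest to Pea15a (0.93), Bgn and Tubb2b (0.92 each), Rgs5 to Ehd4 (0.80), Oasl2 (0.78) and Sgpl1 (0.77), and Acta2 to Tnfrsf1a (0.93), Atxn10 (0.87) and Rras (0.86). Tagln was closest to Anxa2 (0.92), Hspb1 (0.91) and Fstl1 (0.90), and Myh11 to Xdh (0.89), Sparcl1 (0.83) and Mrpl39 (0.81). The means of Kdr, Emcn, Pdgfrb and Myh11 (5.37, 5.14, 7.36 and 5.62) were too low for them to be among the genes ranked. Of the remaining vascular genes, none was among the 3 closest genes of another. Between vascular genes, r ran from -0.49 (Pecam1 and Emcn) to 0.84 (Acta2 and Tagln). Ranked by Spearman's rho instead, 9 of these 30 genes were again among the closest 3.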

How the data were processed

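RNA was measured in 14 libraries of (NZBxNZW)F1 mice. Polyadenylated RNA was sequenced by the authors with the Ion Torrent PGM system. Adaptors were removed and reads were aligned to GRCm38 and counted by gene with the defaults of CLC Genomics Workbench 8, and the authors deposited a normalized signal for each gene in each library. In 100% of values the signal times the size factor of the table was a whole number (tolerance 1e-06), namely the reads plus 1, and the reads were recovered from it as counts for the alternatives.

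The 3 tissues of proteinuric mice were compared with limma 3.58.1 (R 4.3.3, trend and robust) on log2(value + 1), a scale on which changes of genes with few reads are understated. Genes entered at a mean value of 5 or more (7382 genes). The lymph node states were compared in a fit of 6 libraries (6810 genes). Calls needed a Benjamini-Hochberg adjusted p under 0.05 over all genes tested. The library labelled young was only described. Alternatives were pseudocounts of 0.5 and 5, other filters, edgeR 4.0.16, DESeq2 1.42.0, the mouse as a replicate block, other sets of libraries and leaving out each library. The scripts were tested on data with known changes. Positions are those of GENCODE M21 on GRCm38, and promoters those of RefSeq on GRCm38.p6, found for 5 of the 10 genes (Kdr, Emcn, Egfl7, Rgs5 and Acta2).

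Named genes were the 10 vascular genes, up to 3 called genes per related list and comparison with the largest log2 fold change, and the 3 genes closest to each vascular gene. Marker genes of other cell types, and the lymph node of mouse L25, were named after their values were seen. Genes and lists were chosen with earlier results of these data known. Mouse numbers mark the same animal. The deviations of kidney and TLS from their means correlated across genes at 0.351, 0.364 and 0.454 in the 3 mice, and the 8 same-mouse pairs of all tissues had a median of 0.114 (range -0.335 to 0.454). Whole kidneys of the series were not analysed here.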

Additional observations from a re-analysis of the deposited data

How the results depend on the processing

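Over 683 alternative values of 38 fitted differences of vascular genes, 618 kept their direction and side of the threshold, 11 lost a call, 14 gained one and 40 changed sign, none of them among the 3 called differences. The number called between kidney and TLS (1) was 0 with a mean value of at least 20, with edgeR on DESeq2 size factors, with DESeq2, with only both tissues in the fit and without the 3 libraries rich in ribosomal RNA (chosen after seeing the data), and 0 to 1 when a library was left out. Between lymph node and TLS (1) it was 0 with a mean of at least 20 or only both tissues, 3 with all 7 lymph nodes, and 0 to 2 with a library left out. Between kidney and lymph node (1) it was 2 with a pseudocount of 5, edgeR with TMM, DESeq2, all 7 lymph nodes or without the 3 libraries, and 1 to 3 with a library left out. At a mean of at least 20, Rgs5 and Emcn were no longer tested. With the mouse as a replicate block each of these counts was again 1, with Rgs5 at -1.28 for kidney minus TLS, Emcn at -1.89 for lymph node minus TLS and 1.99 for kidney minus lymph node, so pairing changed no call. The lymph node states share no mouse.

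The changes of sign were all of differences that were not called, and are given here as log2 fold changes. For kidney minus TLS, leaving out a library gave ranges of -0.10 to 0.46 for Cdh5, -0.34 to 0.21 for Emcn, -0.047 to 1.01 for Egfl7, -0.64 to 0.78 for Pdgfrb and -1.37 to 0.44 for Acta2. Acta2 was 0.33 with edgeR and TMM, 0.50 with edgeR on DESeq2 size factors and 0.49 with DESeq2, and Emcn was 0.10 with the replicate block. Without the 3 libraries rich in ribosomal RNA, Emcn was 0.052, Egfl7 -0.069, Pdgfrb -0.11, Acta2 0.22 and Myh11 0.085 for kidney minus TLS, and Myh11 0.17 for lymph node minus TLS and -0.080 for kidney minus lymph node. Leaving out a library gave -0.94 to 0.040 for Myh11 in lymph node minus TLS, and -0.34 to 0.068 for Kdr and -0.42 to 0.56 for Myh11 in kidney minus lymph node. In that comparison Kdr was 0.089 with the replicate block and Myh11 -0.027 with all 7 lymph nodes. Between the lymph node states, leaving out a library gave -0.13 to 0.46 for Pecam1, -0.060 to 0.57 for Cdh5, -0.25 to 0.061 for Egfl7, -0.43 to 0.22 for Rgs5, -0.31 to 1.16 for Tagln and -0.30 to 0.78 for Myh11, and Tagln was -0.24 with edgeR and TMM, -0.27 with edgeR on DESeq2 size factors and -0.26 with DESeq2.

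Depth limits the genes with few reads: Emcn and Pdgfrb between lymph node states could not be tested, and for Myh11, Kdr and Cdh5 a few reads separate the tissues. A lone or paired remaining library in a group was assumed to vary like the other groups. The cause of the changes of sign was not tested.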
